A study of Homo sapiens with 12 samples.

Results

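The SOX2 locus was taken as the stretch of chromosome 3 from 181000000 to 182000000 (hg19), and its members were all peaks of acetylated lysine 27 on histone H3 (H3K27ac) that overlapped it in 8 untreated lists of human cancer cell lines. Of 224362 peaks in these lists, 50 lay in the window. SOX2 itself spans 181429712 to 181432223 on the plus strand and lies inside SOX2-OT, a longer non-coding transcript gene. Within the window, members were taken by position and not by their values.

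H3K27ac was measured by chromatin immunoprecipitation and sequencing, with 1 antibody and 1 culture medium throughout. HCC95 derives from a squamous carcinoma of the lung. BICR31 is placed among head and neck squamous lines by the design text of the series, although its sample label says lung adenocarcinoma. Each of these lines had 1 library. H358 and H2009 are lung adenocarcinoma lines and Ishikawa is an endometrial carcinoma line, with 2 libraries each. All are labelled as having had no treatment, and each stands for its tumour type as a single established line. The lists held 23400 peaks in HCC95, 42148 in BICR31, 26866 and 26954 in H358, 26887 and 26412 in H2009, and 24384 and 27311 in Ishikawa. Peak lists carry no read numbers, so sequencing depth is unknown. Peaks were deposited in narrow form for H358 and H2009, in broad form for HCC95 and BICR31 and in a 5-column form for Ishikawa, so file form and type of line cannot be told apart. Median peak widths were 814 bp in HCC95 and 893 bp in BICR31, 347 to 382 bp in H358 and H2009, and 1507 and 955 bp in Ishikawa.

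SOX2 encodes a transcription factor with a high mobility group box that binds DNA. It helps to keep embryonic and neural stem cells undifferentiated and acts in the basal cells of stratified and airway epithelium. The distal long arm of chromosome 3, which carries SOX2, is often gained in squamous cancers, where SOX2 is regarded as a lineage oncogene together with TP63. H3K27ac marks active promoters and enhancers, and SOX2 is known to have enhancers both close to the gene and far downstream of it. Copy number and SOX2 expression were not measured in these files.

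The 250 bases before the SOX2 start are shown because 2 lines had a peak across them and the other lines did not. The sequence is from RefSeq (GRCh38.p14, chromosome 3, 181711675 to 181711924, plus strand), a build other than that of the peaks, and is given with motif matches in capitals.

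SOX2, bases before the start: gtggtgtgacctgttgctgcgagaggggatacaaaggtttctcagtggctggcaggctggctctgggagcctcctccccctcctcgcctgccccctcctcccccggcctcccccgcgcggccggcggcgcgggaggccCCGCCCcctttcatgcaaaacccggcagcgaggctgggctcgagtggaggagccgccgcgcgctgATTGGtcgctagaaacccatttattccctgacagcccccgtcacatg

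This stretch was 68.8% G and C, above 76.6% of the 35116 RefSeq promoters of the same length, whose median was 58%, and it held 20 CpG dinucleotides. Of 5 motifs searched on both strands, 2 were found, once each and without overlap. CCAAT matched on the minus strand (ATTGG) with its first printed letter 47 bases before the start, as in 11240 of the 35116 promoters. GGGCGG, the GC box, matched on the minus strand (CCGCCC) 112 bases before the start, as in 42.6% of promoters. TATAAA (in 10.7% of promoters), AACAAT (8.98%) and CACCC (54.7%) had no match on either strand. These are letter matches and not measured binding sites.

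Peaks at SOX2 itself were found in both squamous lines, in both H358 libraries and in 1 of the H2009 libraries, and in neither Ishikawa library. A peak was placed at the promoter when it came within 2 kb of the SOX2 start on either side, and 7 of the 50 members did so. HCC95 had the widest, of 2214 bp (181428894 to 181431107), with a deposited fold enrichment of 2.30 and a −log10 q of 2.93. BICR31 had 1 of 1196 bp (181428697 to 181429892), with a fold enrichment of 2.86 and a −log10 q of 1.57. These were the 2 peaks that covered the start itself, and both covered all 250 of the bases printed above.

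In the lung adenocarcinoma lines the promoter peaks began inside the gene. H358 replicate 1 had peaks of 474 and 420 bp starting 336 and 1012 bases downstream of the start, with fold enrichments of 3.93 and 3.75. H358 replicate 2 had peaks of 294 and 249 bp starting 251 and 1059 bases downstream, with fold enrichments of 3.40 and 3.42. Both replicates thus had a pair of peaks at nearly the same places, with summits 531 and 1299 bases downstream in replicate 1 and 334 and 1101 in replicate 2. H2009 replicate 2 had a single peak of 251 bp starting 255 bases downstream, with a fold enrichment of 3.72, and H2009 replicate 1 had none. Of the 2512 bases of the gene, peaks covered 55.6% in HCC95, 7.21% in BICR31, 35.6% and 21.6% in the H358 replicates, 9.99% in H2009 replicate 2 and 0% in the remaining 3 libraries. The HCC95 peak therefore covered both the upstream side and the place of the H358 peaks, while the BICR31 peak lay almost wholly upstream. Narrow and broad peak forms set widths differently, and their part in this contrast was not tested.

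**Figure D1:**
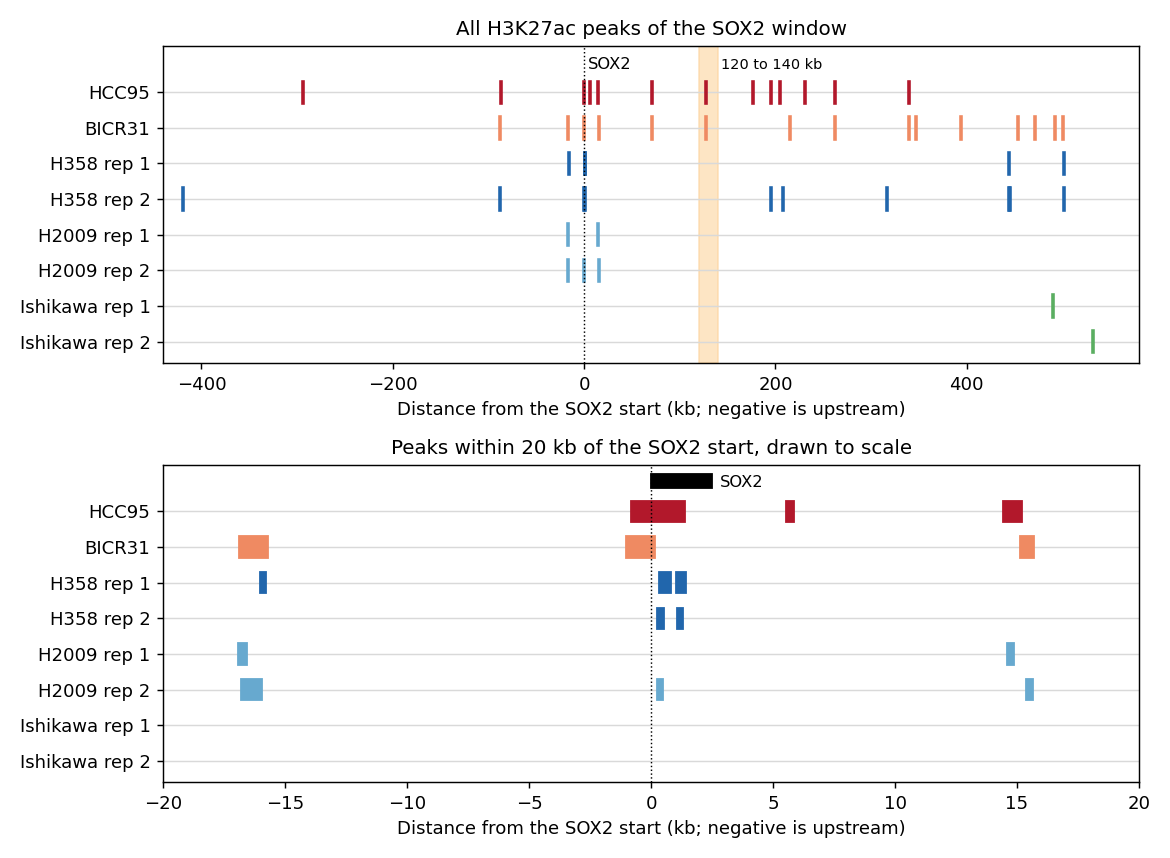
Position of each H3K27ac peak (x axis, kb from the SOX2 start) in the 8 libraries (rows), over the whole window as marks at peak midpoints (upper panel) and within 20 kb of the start with widths to scale (lower panel; the black bar is SOX2, and shading in the upper panel marks 120 to 140 kb downstream). HCC95 and BICR31 peaks cover the start, the H358 promoter peaks begin 0.251 to 1.06 kb downstream of it, and no Ishikawa peak is closer than 490 kb.

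The promoter peaks were weak for their lists by fold enrichment. By fold enrichment, the HCC95 promoter peak stood at percentile 0.701 of all peaks in its list and the BICR31 one at 3.60. Those of H358 stood at percentiles 10.8 and 6.13 in replicate 1 and 3.11 and 3.24 in replicate 2, and that of H2009 replicate 2 at 6.21. All 7 thus lay in the lowest part of their lists by this measure. By −log10 q the HCC95 peak stood at percentile 63.1, the H358 peaks at 44.8 and 36.1 in replicate 1 and at 14.7 and 15.3 in replicate 2, and those of BICR31 and H2009 replicate 2 at 9.31 and 8.68. The HCC95 promoter peak was therefore above the median of its list by −log10 q and near the bottom by fold enrichment. It was also at percentile 97.7 of its list by width.

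Peaks of the whole window showed the same low standing: 10 of the 50 exceeded the median fold enrichment (score in Ishikawa) of their list and 13 exceeded its median −log10 q, where 50% of all peaks would. In HCC95, 2 of 13 exceeded the median by fold enrichment and 8 by −log10 q. In BICR31 these counts were 6 and 4 of 15. None of the 15 H358 members exceeded either median. In H2009, 2 of 5 exceeded the median fold enrichment and 1 the median −log10 q, all in replicate 2. The order of libraries by strength thus depended on the measure, most of all in HCC95.

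**Figure D2:**
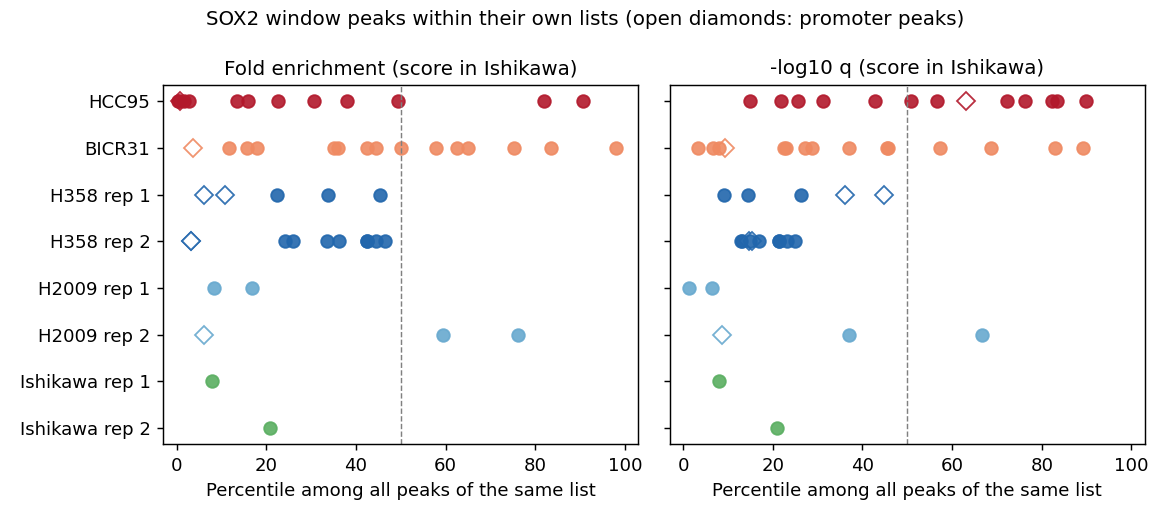
Percentile of each SOX2 window peak among all peaks of its own list (x axis) by fold enrichment (left) and by −log10 q (right), with libraries as rows, the score in place of both for Ishikawa, promoter peaks as open diamonds and the median as a dashed line. The 7 promoter peaks sit between percentiles 0.701 and 10.8 by fold enrichment, and 10 of the 50 peaks lie above the dashed line on the left against 13 on the right.

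The squamous lines had the most bases inside H3K27ac peaks over the locus, a measure of peak extent that moves with peak form and list length. HCC95 had 13 peaks and 14304 called bases, that is, bases lying inside a peak, and BICR31 had 15 peaks and 10793. H358 had 5 and 10 peaks and 2357 ± 1020 called bases (SD, n = 2), H2009 2 and 3 peaks and 1024 ± 528 (SD, n = 2), and Ishikawa 1 peak in each library and 677 ± 120 (SD, n = 2). Both squamous libraries lay above every library of the other lines, of which the highest was H358 replicate 2 with 3078. With every list reduced to its 23400 highest-ranked peaks, the length of the HCC95 list, BICR31 had 7 peaks in the window and H358 replicate 2 had 8. HCC95 kept its 13 because no peak was removed from its list.

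Over lines, the squamous mean of 12549 called bases exceeded the mean of 1352 in the other 3 lines by 11196 (exact two-sided permutation p = 0.1 over 10 assignments, the smallest p that 5 lines allow). As a share of each list's called bases the difference was 0.0365 percentage points, with means of 0.0467% in squamous and 0.0102% in other lines (exact two-sided permutation p = 0.1). On that scale BICR31, at 0.0266%, was close to H358 replicate 2, at 0.0256%, while HCC95 stood at 0.0668%. H358 replicate 1 had 0.0139%, H2009 0.00600% and 0.0122%, and Ishikawa 0.00184% and 0.00182%. Of the squamous lines, HCC95 was thus well above both H358 libraries once list size was taken into account, while BICR31 was close to the higher of them. In the higher-ranked 50% of each list the difference was 2761 called bases by fold enrichment and 6066 by −log10 q, and within 250 kb of SOX2 it was 7351.

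**Figure D3:**
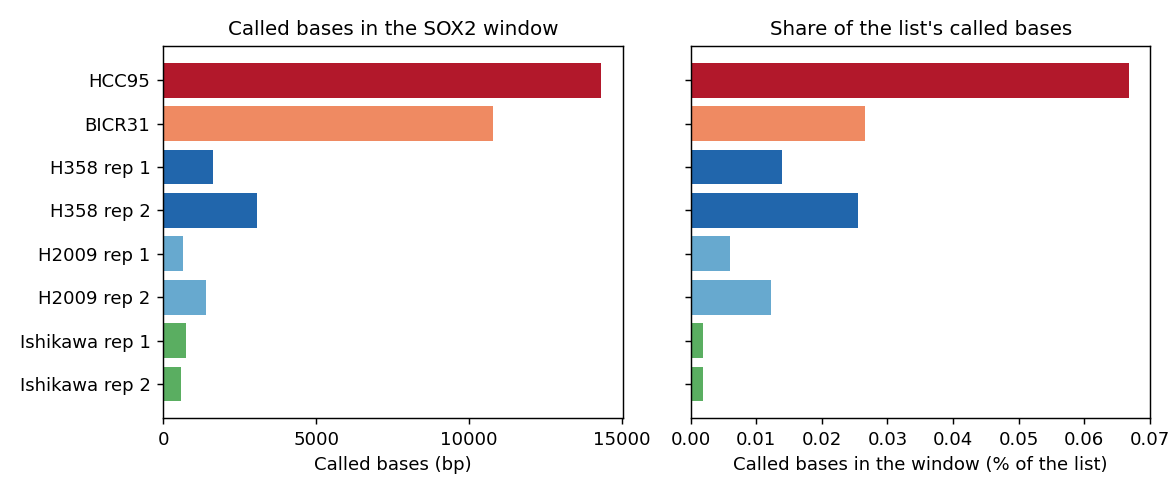
Called bases in the SOX2 window (left, bp) and the same as a percent of all called bases of the list (right), 1 bar per library. HCC95 (14304 bp) and BICR31 (10793 bp) exceed the 6 other libraries on the left; on the right BICR31 (0.0266%) is level with H358 replicate 2 (0.0256%).

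Compared with every 1 Mb tile of the genome that held a peak, 2871 in all, the window was rich in HCC95 and poor in H2009 and Ishikawa. It held more called bases than 84.4% of tiles in HCC95, where the median tile had 5154. In BICR31 it was an ordinary tile, above 49.7% of them and close to the median of 10879. H358 was above 35.3% and 54.0% of tiles, H2009 above 19.9% and 33.0%, and Ishikawa above 11.4% and 12.3%. In the higher-ranked 50% of each list by fold enrichment HCC95 was above 33.1% of tiles, so its standing rested on peaks that were low by this measure. The tile rank was not computed for lists cut by −log10 q, by which 8 of the 13 HCC95 members exceeded the median. The tile on the 3′ side, 182 to 183 Mb, held more called bases than the SOX2 window in all 8 libraries, 14562 in HCC95 and 28773 in BICR31. The tile on the 5′ side, 180 to 181 Mb, held fewer in HCC95 (5277), BICR31 (4716) and H358 replicate 2 (2201) and more in the other 5 libraries.

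Merging overlapping peaks of the 8 lists gave 29 regions in the window. None had a peak in every library, whereas 12.1% of all 70648 merged regions did. Regions with a peak in 4 or more libraries numbered 3 of 29 (10.3%), against 27.2% of all regions, and these 3 were the region at SOX2 and its neighbours about 15 kb to either side. A further 18 of 29 (62.1%) had a peak in 1 library, against 47.7% of all regions. Regions with peaks in squamous lines alone made up 16 of 29 (55.2%), against 31.7% of all regions. Of these 16, 5 had a peak in HCC95 alone, 7 in BICR31 alone and 4 in both. Regions with a peak in both squamous lines, whether or not another line had one, were 7 of 29 (24.1%), close to the 24.3% of all regions.

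The region at SOX2 (181428697 to 181431143, 2447 bp) was the widest of the window and had peaks in 5 libraries of 4 lines. The BICR31 peak ended at 181429892, and the first of the H358 and H2009 peaks began at 181429963. BICR31 thus overlapped none of these, and the wide HCC95 peak joined them into 1 region. The other 2 widely shared regions lay within 17 kb of the start. The upstream one (181412799 to 181414023) had peaks in BICR31, in H358 replicate 1 and in both H2009 libraries, and none in HCC95 or Ishikawa. The H358 replicate 1 and H2009 replicate 1 peaks there did not overlap each other, and each overlapped those of BICR31 and H2009 replicate 2. Fold enrichments come from separate peak lists and are given for each library without ranking one against another. They were 4.43 in BICR31, 4.76 in H358 replicate 1, and 4.23 and 6.35 in the H2009 replicates. The H2009 replicate 2 peak there, 851 bp wide, had the highest fold enrichment of that library's members and stood at percentile 76.2 of its list. The H2009 replicate 1 peak there was the higher of 2 members, at percentile 16.8 of its list, and that library had no promoter peak. In both H2009 libraries the highest fold enrichment among members was thus upstream of the gene.

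The downstream region (181444158 to 181445421, 1264 bp) had peaks in HCC95, BICR31 and both H2009 libraries, with fold enrichments of 3.59, 3.72, 3.92 and 5.62. The H2009 peaks there did not overlap each other: replicate 1 ended at 181444602 and replicate 2 began at 181445063, and the wider squamous peaks joined them into 1 region. All 5 H2009 members fell within the 3 regions just described, so that H2009 had no peak farther than 17 kb from the start. The remaining region near the gene (181435238 to 181435579), 5.53 kb downstream, had a peak in HCC95 alone, with a fold enrichment of 2.15.

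Beyond 50 kb from the start there were 25 regions, of which 15 (60%) had peaks in squamous lines alone, against 31.7% of all regions, and none had peaks in 4 or more libraries, against 27.2%. HCC95 had peaks in 10 of them (40%, against 33% of all regions) and BICR31 in 12 (48%, against 59.2%). H358 had peaks in 8 (32%, against 39.1%), Ishikawa in 2 (8%, against 37.6%) and H2009 in 0 (against 39.9%). The distance from the share of all regions was thus widest in H2009 and Ishikawa, and BICR31 and H358 were also below theirs. All regions were not limited by distance from a gene start, and the effect of this on the gaps was not tested. The most widely shared was the region 86.8 kb upstream (181341745 to 181342905), with peaks in HCC95, BICR31 and H358 replicate 2. Their fold enrichments were 3.47, 3.97 and 5.23, the last being the highest of that library's members. Most members lay downstream of the SOX2 start, 39 of 50 peaks, with 9 upstream and 2 across it. The 39 include the promoter peaks of H358 and H2009, which began inside the gene. The window reaches 430 kb upstream and 570 kb downstream of the start.

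**Figure D4:**
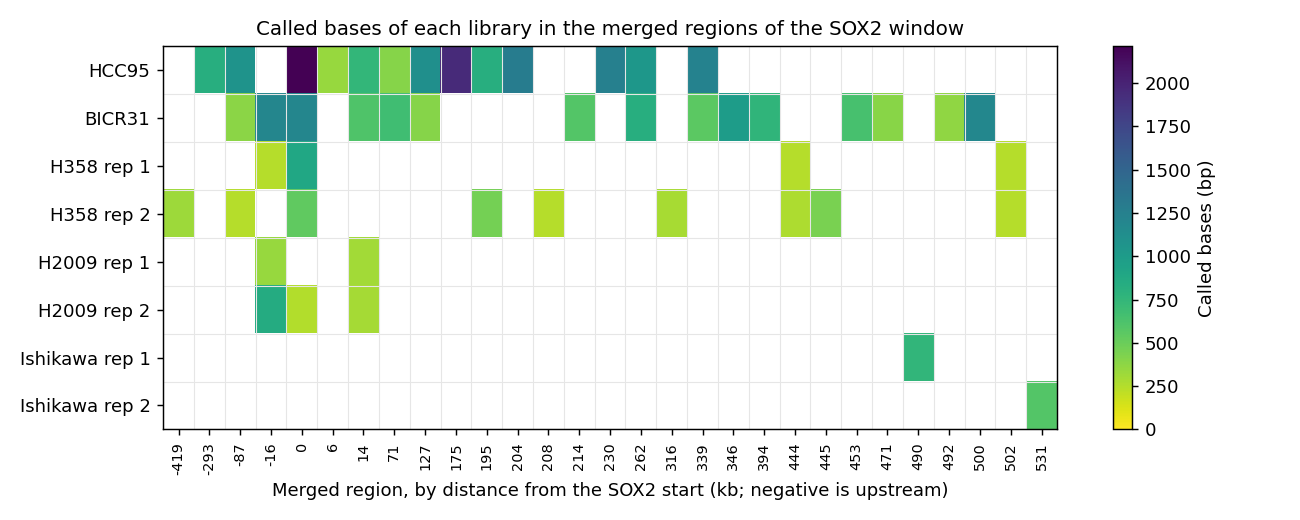
Called bases (colour, bp) of each library (rows) in the 29 merged regions of the SOX2 window (columns, labelled by distance from the SOX2 start in kb); white means no peak. The regions at −16, 0 and 14 kb have peaks in 4 or 5 libraries, and most columns to the right of them hold peaks of HCC95, BICR31 or both and of no other line.

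HCC95 and BICR31 shared 4 regions that no other line had, 13.8% of the 29 regions, against 3.56% of all regions. Where peaks of other lines were allowed, both had a peak in 24.1% of the 29 regions, close to the 24.3% of all regions. The count of exclusive regions was 2 when a library had to cover 50% of a region. In the higher-ranked 50% of each list it was 1 by fold enrichment and 2 by −log10 q. All 4 lay downstream of SOX2. The nearest, 70.7 kb away (181500399 to 181501074), held the highest fold enrichment of any HCC95 member, 5.01, at percentile 90.7 of its list, and 4.77 in BICR31, at percentile 83.4. It was the 1 place where both squamous lines had a peak in the upper part of their lists by fold enrichment. The others were at 262 kb (181691773 to 181692834; fold enrichment 3.79 in HCC95 and 4.08 in BICR31), at 339 kb (181768729 to 181770096; 3.15 and 3.81) and at 127 kb.

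The region at 127 kb (181556576 to 181557688) lay in the stretch from 120 to 140 kb downstream, which holds an enhancer cluster described for SOX2 in human lung and breast cancer cells. HCC95 had a peak of 1113 bp there with a fold enrichment of 3.21, at percentile 15.9 of its list. BICR31 had a peak of 404 bp with a fold enrichment of 6.37, the highest of its members, at percentile 98.1. None of the 6 libraries of the lung adenocarcinoma and endometrial lines had a peak in this stretch. In the higher-ranked 50% of each list by fold enrichment it was left to BICR31, and by −log10 q both squamous lines kept it.

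The squamous lines also differed from each other. Of the 13 HCC95 peaks, 7 overlapped a BICR31 peak (53.8%), where 72.9% of all HCC95 peaks did. Of the 15 BICR31 peaks, 7 overlapped an HCC95 peak (46.7%), where 40.8% of all BICR31 peaks did. HCC95 had 5 regions to itself, 17.2% of 29 against 6.20% of all regions. They included the second widest of the window, 175 kb downstream (181604795 to 181606748, 1954 bp, fold enrichment 2.70), and 1 at 204 kb (181633947 to 181635230, 1284 bp, 2.29). BICR31 had 7, or 24.1%, close to its 21.9% of all regions, all of them downstream by 214 kb or more. Both lines are represented by 1 library, so none of these could be checked in a replicate.

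Peaks of 1 library that lay within 10 kb of each other were joined to see where they gathered. HCC95 had its largest such cluster at SOX2, with 3 peaks over 16016 bp from −0.818 kb to 15.2 kb relative to the start and 3308 called bases. It ranked 329 of 20743 clusters in the list by called bases. A second HCC95 cluster of 2 peaks from 195 to 206 kb downstream ranked 1411. The BICR31 promoter peak stood alone, and the 2 clusters of that line lay more than 339 kb downstream, at ranks 8654 and 8526 of 32253. The pair of promoter peaks formed a cluster in both H358 libraries, ranking 3668 of 19258 in replicate 1 and 9432 of 18806 in replicate 2. H358 replicate 2 had a larger cluster of 714 called bases from 444 to 445 kb downstream, at rank 6374, against 543 called bases in its promoter cluster. With 5 kb stitching there were 4 clusters over all libraries in place of 7. That of HCC95 at SOX2 then held the promoter peak and the peak 5.53 kb downstream of the start.

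H358 peaks repeated between replicates at the promoter and at 2 places far downstream. Of the 5 peaks of replicate 1, 4 overlapped a peak of replicate 2 (80%, against 69.1% of its whole list), and of the 10 peaks of replicate 2, 4 overlapped 1 of replicate 1 (40%, against 69%). The regions 444 kb (181873980 to 181874256) and 502 kb downstream (181931236 to 181931528) had peaks in both H358 libraries and in no other line, 2 of 29 regions or 6.90%, against 1.32% of all regions. Their fold enrichments were 4.46 and 5.15 at 444 kb, and 5.18 and 4.87 at 502 kb, in replicates 1 and 2. A BICR31 peak ended at 181931067, just short of the region at 502 kb, so that its restriction to H358 depends on the exact peak edges.

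H2009 repeated 1 place. In replicate 1, 1 of 2 peaks overlapped a peak of replicate 2 (50%, against 66.2% of the list), and in replicate 2, 1 of 3 did (33.3%, against 66.4%), in each case the upstream neighbour of SOX2. Ishikawa repeated none: its peaks, with scores of 56.9 and 73.2, lay 490 and 531 kb downstream, at percentiles 7.93 and 20.9 of their lists, although 85.5% and 86.7% of the peaks in the Ishikawa lists overlapped a peak of the other replicate. No region was specific to Ishikawa in both libraries, where 5.11% of all regions were.

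Agreement within the window was also measured as the Jaccard index, which is the number of bases called in both of a pair of lists over the number called in at least 1 of them. It was 0.236 for the H358 replicates, 0.122 for those of H2009 and 0 for those of Ishikawa, and the highest between lines was 0.158, for HCC95 with BICR31. Same-line pairs averaged 0.119 and the 25 pairs of different lines 0.0259, a difference of 0.0933 (exact one-sided permutation p = 0.0286 over 420 assignments). Replicates of a line share a file form and most pairs of different lines do not, so line and form cannot be told apart in this test. In the 4 H358 and H2009 lists alone the means were 0.179 and 0.0369 (exact permutation p = 0.333, the smallest that 3 assignments allow). The call rested on single libraries: the exact permutation p was 0.2 without either H358 library, 0.105 without H2009 replicate 1 and 0.0952 without H2009 replicate 2. It was 0.0190 without either Ishikawa library.

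The 4 further H2009 libraries, labelled e3KRAB1, e3KRAB2, Empty and Control, had 0 peaks in the window. Their lists held 2315, 1375, 1960 and 3250 peaks, far fewer than the untreated H2009 lists with 2 and 3 peaks there, so no difference was detectable at this list length.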

How the data were processed

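H3K27ac peak lists of 8 untreated libraries from 5 human cancer cell lines were used, grouped by the labels. Reads were aligned with BWA to hg19 per the submitters' processing notes; peak names of the Ishikawa lists begin with MACS, and no caller is named for the others in the sources used here. For each peak of the other lists the authors deposited a fold enrichment ratio, the −log10 of p and of q, a score and, in H358 and H2009, a summit position. The Ishikawa lists held 1 deposited score. These values describe each peak and were ranked only within a list, as percentiles. Peaks on chromosomes 1 to 22 and X were kept, which left out 531 peaks of the 8 lists. Positions are 1-based; distances run from the SOX2 start to the nearest peak edge. Overlapping peaks (at least 1 bp) were merged into regions. A region was specific to a line, or exclusive to a pair, when every library of it and none of another line had a peak. Tests were exact permutations over lines or libraries, in Python 3.11.15 with numpy 2.4.6, checked on lists with known answers. Nothing in the labels tells if replicates came from separate cultures, so p-values of the Jaccard index measure only the spread between these libraries. Those of called bases measure the spread between the 5 lines. The regions named were the promoter region, the 5 widest, the 5 in most libraries and that with the highest value per line, and further regions were named after their values were seen. The window, the lists and these rules were chosen with earlier results of these data known. No annotation of hg19 was at hand, so no other gene was placed and line markers were not examined.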

Additional observations from a re-analysis of the deposited data

How the results depend on the processing

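The excess of called bases in squamous over other lines was positive in all 13 alternatives; no p is given for them, since none of these designs could pass 0.05, and 3 of them left 1 squamous line. Counts were less stable. The 50 peaks of the window became 10 in the higher-ranked 50% of each list by fold enrichment, 13 by −log10 q and 30 within 250 kb of SOX2; ranking by −log10 q was chosen after seeing the data. Libraries with a SOX2 promoter peak, 5 of 8, became 0 in the higher-ranked 50% by fold enrichment and 1 (HCC95) by −log10 q. Lists of equal length also left 1 (HCC95), whose list set that length and so lost no peak. Libraries with such a peak numbered 3 to 4 without replicate 1 or 2. The 29 regions became 8 and 10 in the higher-ranked 50% by fold enrichment and −log10 q, and the 4 regions exclusive to HCC95 and BICR31 became 1 and 2, or 2 when a library had to cover 50% of a region. The stretch 120 to 140 kb downstream had a peak in 1 library, not 2, in the higher-ranked 50% by fold enrichment. Clusters of 2 or more peaks numbered 4, not 7, with 5 kb stitching. The replicate difference in Jaccard index ran from 0.0349 to 0.145 when single libraries were left out. It was not computed in the higher-ranked 50% of lists or within 250 kb, where a replicate pair had no peaks, or without replicate 1 or 2, which leaves no pair. Shorter lists and fewer libraries hold fewer peaks by construction. No paired analysis was possible because the tests compare lines or pairs of libraries, and equal replicate numbers in different lines mark no shared culture or day.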

Other observations

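The 1 Mb tiles most like the SOX2 window in their profile over the 8 libraries, as a share of each list's called bases, were sought among 2793 tiles with peaks in at least 3 libraries. The highest Pearson r was 0.980, for chromosome 15, 88 to 89 Mb, a nearly empty tile with 0.00729% of called bases in HCC95, 0.00242% in BICR31, 0.00221% in H358 replicate 2 and 0% in the other 5 libraries. Next came chromosome 1, 225 to 226 Mb (r = 0.967) and chromosome 15, 94 to 95 Mb (r = 0.967), where HCC95 had 0.0700% and 0.0426% and BICR31 0.0461% and 0.0260%. Chromosome 5, 15 to 16 Mb (r = 0.965) and chromosome 11, 123 to 124 Mb (r = 0.956) followed. An r above 0.9 was found for 50 tiles. These correlations run over 8 libraries that share file form within type of line, and HCC95 was highest in each of the 5 tiles, so they only describe these lists.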
